A study of Mus musculus with 2 samples.

Results

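Tgm1, Tgm2, Tgm3 and Tgm5 were the transglutaminase genes examined, 4 of the 32285 genes listed in the count matrices, and they were taken from that list by symbol. Transglutaminases are calcium-dependent enzymes that join a glutamine of one protein to a lysine of another, a bond that common proteases do not cut. In skin they tie envelope and keratin-associated proteins into the cornified envelope of the epidermis and into the hardened inner root sheath (IRS) of the hair follicle (HF). TGM1 is anchored in the membrane of differentiating keratinocytes, TGM3 is made as a proenzyme that proteases activate, TGM5 acts in the upper epidermis, and TGM2 is the widely expressed tissue transglutaminase. Some of their substrates, among them trichohyalin, are also modified by the peptidylarginine deiminases, the enzyme family of PADI4.

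Cells came from the back skin of mice at postnatal day 1 (P1), from the follicle-holding dermal fraction left after the epidermis was peeled off with dispase, and tdTomato-positive, DAPI-negative cells were sorted. The labels describe K14-Cre Padi4 fl/fl mice with a tdTOMATO reporter for both libraries, K14-Cre being a driver active in keratin 14 lineage epithelium, and give the genotype of one library as WT and of the other as PADI4 cKO. The study describes a K14-Cre;tdTomato line, which was crossed to Padi4 fl/fl mice for the cKO. Whether the animals of the WT library carried 1 floxed allele, as those of its cultured WT cells did, and the number and sex of the animals in each library, were not given in the sources used here. With 1 library per genotype and 1 batch label shared by both, a genotype difference and a difference between libraries cannot be told apart, no test was run, and the 95% intervals below cover counting error only.

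After filtering, 8070 PADI4 WT cells remained, and 7393 in the library labelled PADI4 cKO, with a median of 14670 and 16208 unique molecular identifiers (UMIs) per cell, and 7995 and 7356 of them were epithelial. The libraries had 14 cell barcodes in common. Xist UMIs without Y-linked UMIs were found in 26.0% of epithelial cells of PADI4 WT and in 98.3% of those of the library labelled PADI4 cKO, and Y-linked UMIs without Xist in 62.4% and 0% of cells. Padi4 had 98 UMIs in epithelial cells of PADI4 WT and 92 in the other library, a log2 ratio of -0.12 (-0.54 to 0.31), so its 3′ UMIs did not separate the labels. Which exons the floxed allele loses was not given in the sources used here. Free RNA was put at no more than 1.02% and 0.741% of the UMIs pooled over the epithelial cells of each library. This was judged from the collagen genes that epithelial cells should lack, and the share in single cells was not estimated.

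Cells were clustered without the transglutaminase genes and named from marker genes. The named classes were ORS-like (outer root sheath, the outermost layer of the follicle), LPC-like (lower proximal cup) and GL-like (germinative layer) progenitors, IRS-like cells, CL-like cells (companion layer, between the sheaths), Cx-like cells (hair cortex), IFE-like cells (interfollicular epidermis) and SG-like cells (sebaceous gland). IFE-like cells had 4 IFE markers raised and also 4 markers of the upper HF. CL-like cells had 3 CL markers raised and also 3 IFE markers. Their leading genes, Krt1 and Krtdap for IFE-like and Krt75 for CL-like cells, decided these ties. No class was named for the medulla of the hair. Cluster 8, with 1082 of the GL-like cells, had 6 GL markers raised and also 3 medulla markers. The medulla marker Mt4 was its first leading gene, so the GL-like values below are not those of progenitors alone. Cluster 13, which stayed unnamed, had 5 GL markers and also 3 medulla markers raised. The medulla marker Krtap8-1 was among its leading genes. Of 5 clusters that stayed unnamed, 1 with 45 cells, all from PADI4 WT, was left out of the comparisons, and the others are given by their leading genes, namely cluster 6 (Pparg, Aldh3a1), cluster 12 (Tagln, Myl9, Acta2), cluster 13 (Gpnmb, Ednra, Krtap8-1) and cluster 14 (Wfdc18, Rap1gap2). These 12 groups held at least 50 cells in each library, and levels are given as CPM, the UMIs of a gene per 1000000 UMIs summed over the cells of a group. The kit counts 3′ ends, so levels were compared for one gene across cells and never between genes.

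On the mm10 assembly, Tgm1 (ENSMUSG00000022218) lies at chr14:55700009-55713926 on the minus strand and its longest coding transcript has 15 exons. The other 3 genes lie on chromosome 2, each with a longest coding transcript of 13 exons. They are Tgm5 (ENSMUSG00000053675) at chr2:121046111-121085841 on the minus strand, Tgm3 (ENSMUSG00000027401) at chr2:130012349-130050399 on the plus strand and Tgm2 (ENSMUSG00000037820) at chr2:158116402-158146436 on the minus strand. Tgm7 lies 7724 bases from Tgm5, and Tgm6 lies 62017 bases from Tgm3. None of the 470 stretches of 31 bases in the last 500 transcript bases of any of the 4 genes was found in a transcript of another listed gene. Tgm2 overlaps the coding gene Rprd1b on the opposite strand, Tgm1, Tgm3 and Tgm5 each overlap a noncoding gene or pseudogene there (Gm49067, Mir6339 and Gm14213), and the use of strand in counting was not stated in the sources used here.

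The genes were highest in different cells. Tgm5 was highest in the ORS-like cells and high in LPC-like and IFE-like cells, Tgm1 was highest in CL-like cells followed by IRS-like cells, and Tgm2 was highest in the cluster led by Tagln, Myl9 and Acta2, in both libraries. Tgm3 was highest in Cx-like cells of PADI4 WT and in IRS-like cells of the other library.

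**Figure D1:**
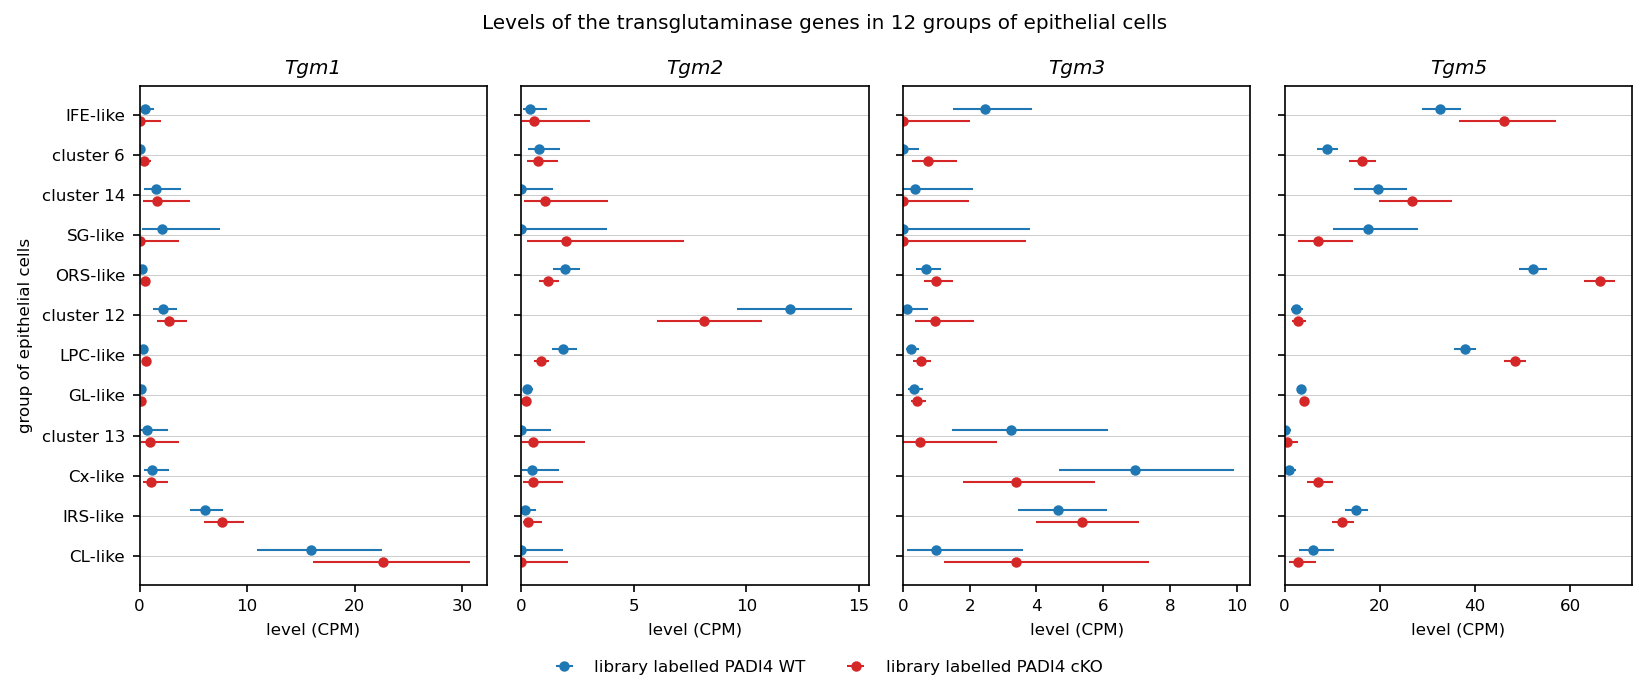
Level of each transglutaminase gene in CPM (horizontal axes, a separate scale for each gene) in 12 groups of epithelial cells (vertical axis), with points for the library labelled PADI4 WT in blue and PADI4 cKO in red and bars for the 95% exact Poisson interval. Tgm5 peaks in ORS-like cells at 52.1 and 66.1 CPM, Tgm1 in CL-like cells at 15.98 and 22.6 CPM and Tgm2 in cluster 12 at 11.9 and 8.12 CPM.

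Tgm1, whose product builds the cornified envelope at the cell membrane, had 32 UMIs in 115 CL-like cells of PADI4 WT, a level of 15.98 CPM (95% exact Poisson interval 10.9 to 22.6). In the library labelled PADI4 cKO it had 40 UMIs in 110 CL-like cells, a level of 22.6 CPM (16.1 to 30.8). Its CL-like interval lay above those of the other 11 groups in each library, although with each cell thinned to 2000 UMIs the level in PADI4 WT was 26.1 CPM. A Tgm1 UMI was found in 23.5% of CL-like cells of PADI4 WT (exact Clopper-Pearson interval 16.1 to 32.3) and in 29.1% of the other library (20.8 to 38.5), no cell holding more than 4. In fibroblast-like cells, which should lack Tgm1, 2 of 49 and 2 of 27 cells had a UMI, at median depths of 13757 and 16894 UMIs against 15519 and 14933.5 in CL-like cells.

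IRS-like cells came next for Tgm1, at 6.12 CPM (4.73 to 7.78, 66 UMIs) in PADI4 WT and 7.72 CPM (6.04 to 9.72, 72 UMIs) in the library labelled PADI4 cKO. Cluster 12 followed with 2.17 and 2.76 CPM, and the IRS-like interval lay above it in both libraries and above 9 groups in PADI4 WT and 10 in the other library, the 54 SG-like cells of PADI4 WT with 2 UMIs overlapping it. From cluster 12 down, neighbouring groups in the order overlapped. The progenitors held little of it, with 3 and 6 UMIs in GL-like, 8 and 19 in LPC-like and 5 and 13 in ORS-like cells. CL-like and IRS-like cells together were a small part of the epithelium, yet CL-like cells held 21.8% and 22.3% of all epithelial Tgm1 UMIs and IRS-like cells 44.9% and 40.2%, against 1.57% and 1.37%, and 8.48% and 7.21%, of all UMIs.

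Tgm3, whose product cross-links structural proteins of hair and epidermis, was highest in Cx-like cells of PADI4 WT at 6.95 CPM (4.69 to 9.92, 30 UMIs in 272 cells) and in IRS-like cells of the library labelled PADI4 cKO at 5.36 CPM (3.98 to 7.06, 50 UMIs in 527 cells). The reverse values, 3.37 CPM in Cx-like cells of the library labelled PADI4 cKO and 4.64 CPM in IRS-like cells of PADI4 WT, lay within overlapping intervals, so the order of the pair was not resolved. CL-like cells of the library labelled PADI4 cKO had 3.39 CPM from 6 UMIs, which overlapped both. With cells thinned to 2000 UMIs the Cx-like level in PADI4 WT was 1.84 CPM, which rests on 1 cell with a UMI. ORS-like, LPC-like and GL-like cells stayed between 0.228 and 1.00 CPM in both libraries, and in fibroblast-like cells no Tgm3 UMI was found.

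Tgm3 differed in both directions between the libraries in groups with few UMIs, all under the 100 UMIs asked for below. In Cx-like cells the log2 ratio of PADI4 cKO to PADI4 WT was -1.01 (-2.10 to -0.06) from 13 and 30 UMIs. In IFE-like cells it had 19 UMIs in PADI4 WT and 0 UMIs in the library labelled PADI4 cKO. The level was 2.47 CPM (1.49 to 3.86) in PADI4 WT, and the interval of 0 UMIs in the other library reached 2.02 CPM. These Poisson intervals overlapped, while the interval of the log2 ratio had its upper end at -0.15. Of those 19 UMIs, 6 came from 1 cell and 18 from cells with Y-linked and no Xist UMIs, and only 143 IFE-like cells were present in the library labelled PADI4 cKO against 566 in PADI4 WT. In cluster 13 it had 9 UMIs in PADI4 WT and 1 UMI in the other library, with overlapping intervals. The other way, cluster 6 had 0 UMIs in PADI4 WT and 6 in the other library, cluster 12 had 1 and 6, CL-like cells 2 and 6 and LPC-like cells 6 and 18, the log2 ratios of the last 3 having intervals that held 0.

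Within the IRS-like cells, Tgm1 and Tgm3 had their highest values where the IRS keratins were. Cells were put in 4 bins by the share of their UMIs from Krt25, Krt27, Krt28, Krt71, Krt72 and Krt73, keratins that accumulate as the sheath differentiates. Tgm1 had 4.87, 3.94, 4.46 and 11.4 CPM from the lowest to the highest bin in PADI4 WT, and 6.24, 7.66, 5.59 and 11.4 CPM in the library labelled PADI4 cKO. The top bin interval in PADI4 WT was 7.68 to 16.3 CPM, which overlapped those of the first and the third bins at its edge, and in the other library the intervals of all 4 bins overlapped. Tgm3 had 2.25, 2.87, 2.23 and 11.4 CPM in PADI4 WT, where the top bin lay above the other 3, and 1.78, 2.82, 7.73 and 9.21 CPM in the library labelled PADI4 cKO, where the top bin lay above the lowest and overlapped the others. Tgm5 had 21.7, 11.1, 10.4 and 17.1 CPM, and 15.2, 7.66, 12.9 and 13.2 CPM, with its highest value in the lowest bin of both libraries, where the interval still overlapped that of the top bin. Called doublets held 43 of the 162 Tgm5 UMIs of IRS-like cells in PADI4 WT and 18 of 113 in the other library. They were 28 of 665 and 30 of 527 cells, and the bins were not computed without them, so no order of the bins is read for Tgm5. Median depth ran from 14860.5 to 17202.5 UMIs over these bins.

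**Figure D2:**
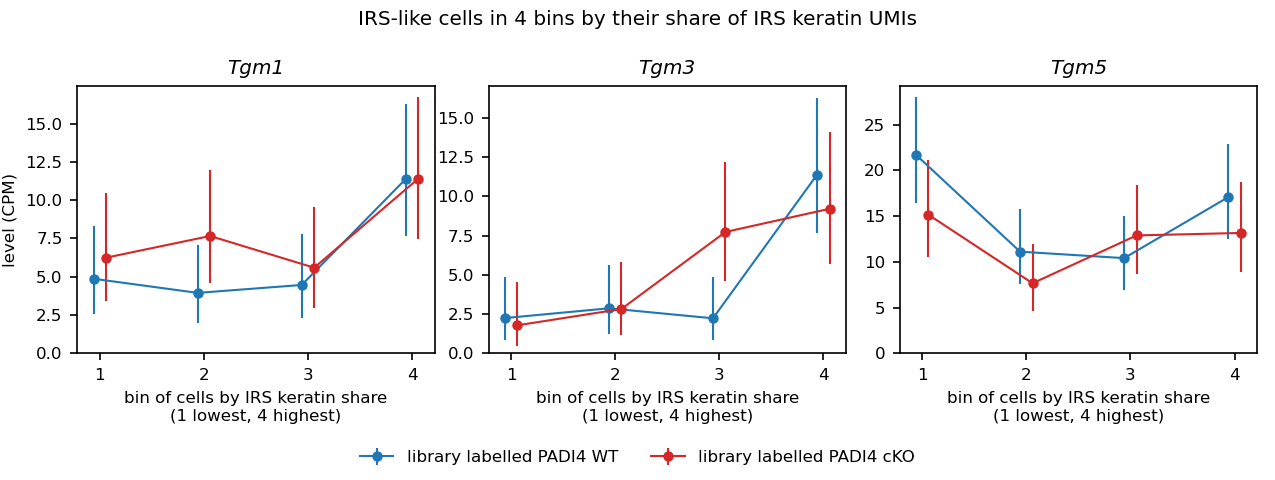
Level in CPM (vertical axes) of Tgm1, Tgm3 and Tgm5 in IRS-like cells put in 4 bins by their share of IRS keratin UMIs (horizontal axes, lowest to highest), with PADI4 WT in blue, PADI4 cKO in red and bars for the 95% exact Poisson interval. Tgm1 and Tgm3 reach 11.4 CPM in the top bin of PADI4 WT, and Tgm5 has its highest value, 21.7 and 15.2 CPM, in the lowest bin. Called doublets are included and hold 43 of 162 and 18 of 113 of the Tgm5 UMIs.

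The share of IRS-like cells with a Tgm1 UMI was higher among those that also held Tgm5. The intervals were apart only in the library labelled PADI4 cKO. In PADI4 WT a Tgm1 UMI was found in 14 of 86 cells with a Tgm5 UMI, 16.3% (9.20 to 25.8), and in 7.08% (5.13 to 9.48) of cells without one. In the library labelled PADI4 cKO it was found in 20 of 62 cells, 32.3% (20.9 to 45.3), and in 8.39% (6.03 to 11.3). The intervals overlapped slightly in PADI4 WT and not in the other library, and the median depths were 16897 against 15081 UMIs and 17144.5 against 16250 UMIs. Without called doublets the shares with Tgm5 were 12.7% and 32.1%, against 7.07% and 8.11% without it.

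Tgm5, an enzyme of keratinocyte differentiation, had 1187 UMIs in 1849 ORS-like cells of PADI4 WT and 1584 in 1874 of the library labelled PADI4 cKO. Its level there was 52.1 CPM (49.2 to 55.2) and 66.1 CPM (62.9 to 69.5), above the interval of each of the other 11 groups in both. LPC-like cells followed at 37.8 CPM (35.5 to 40.3) and 48.4 CPM (46.1 to 50.8), and IFE-like cells at 32.7 CPM (28.8 to 37.0) and 46.0 CPM (36.7 to 57.0). LPC-like and IFE-like intervals overlapped each other in both libraries and lay above all groups below them.

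Below them Tgm5 had 19.6 and 26.7 CPM in cluster 14, 17.5 and 6.999 CPM in SG-like cells, 15.0 and 12.1 CPM in IRS-like cells and 8.84 and 16.2 CPM in cluster 6, so that IRS-like cells and cluster 6 changed places between the libraries. Called doublets held 43 of 162 and 18 of 113 Tgm5 UMIs in IRS-like cells, and 14 of 67 and 31 of 130 in cluster 6. GL-like cells, which include cluster 8 with its raised medulla markers, were low at 3.53 CPM (2.90 to 4.26) and 4.19 CPM (3.55 to 4.91). They held 3.82% and 3.98% of epithelial Tgm5 UMIs with 24.5% and 27.9% of all UMIs. ORS-like cells held 41.3% and 41.7% with 17.9% and 18.5% of all UMIs, and LPC-like cells 34.6% and 42.8% with 20.7% and 26.0%. Cluster 13 had 0 UMIs in PADI4 WT, where 3 counts in its 200 cells would be 1.08 CPM, and 1 UMI in the other library.

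In Cx-like cells Tgm5 had 4 UMIs in PADI4 WT and 27 in the library labelled PADI4 cKO, 0.926 and 7.01 CPM. Of the 27 UMIs, 23 lay in 8 cells called doublets, out of 11 cells with a UMI, and 9 lay in a single cell. In IFE-like cells the level was not higher where the suprabasal keratins were found. Cells with a Krt1 or Krt10 UMI, 47.3% and 46.2% of the class, had 31.2 CPM (26.1 to 37.2) and 39.9 CPM (28.1 to 55.0), and cells without one 34.3 CPM (28.5 to 41.0) and 52.3 CPM (38.4 to 69.5), so the intervals overlapped in each library.

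A Tgm5 UMI was found in 24.8% (22.9 to 26.9) of ORS-like cells of PADI4 WT and 32.5% (30.4 to 34.7) of the library labelled PADI4 cKO, and in 38.1% (35.5 to 40.8) and 44.6% (42.2 to 47.1) of LPC-like cells. In fibroblast-like cells the shares were 1 of 49 and 2 of 27 cells. Median depth was 10990 and 11636.5 UMIs in ORS-like cells against 18795.5 and 19588 in LPC-like cells, and with cells thinned to 2000 UMIs the ORS-like share was 10.3% in both libraries and the LPC-like share 5.08% and 9.29%. The share as deposited therefore put LPC-like cells first while the CPM put ORS-like cells first, and no order was read from the share. Single cells reached 14 UMIs in ORS-like cells of both libraries, and the tenth of ORS-like cells with the most Tgm5 held 70.0% and 58.6% of its UMIs there.

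The ORS-like clusters differed widely in Tgm5. Cluster 2, led by Nkain2, Nkain3 and Pdlim3, had 145 CPM (136 to 155) in PADI4 WT and 143 CPM (134 to 152) in the library labelled PADI4 cKO. Cluster 16, led by Tafa1, Adamts18 and Smoc1, had 99.8 CPM (83.7 to 118) and 117 CPM (104 to 131). Cluster 7, led by Tgfb2 and Adamts19, had 13.3 CPM (10.1 to 17.1) and 35.0 CPM (30.2 to 40.3). Cluster 1, led by Pi15, Sfrp1 and Rims1, had 8.53 CPM (6.87 to 10.5) and 13.7 CPM (11.4 to 16.3). Cluster 2 alone held 76.0% and 61.4% of ORS-like Tgm5 UMIs with 35.3% and 33.4% of the cells, and its cells were the shallowest of the class, with a median of 8277.5 and 10053.5 UMIs.

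LPC-like clusters were graded in the same way, and Tgm2 had the opposite order between clusters 0 and 3. Tgm5 had 57.1 CPM (53.0 to 61.6) and 79.3 CPM (74.8 to 83.9) in cluster 0 (Slc7a2, Mme), 32.6 and 38.4 CPM in cluster 9 (Frem1, Sp5) and 11.95 CPM (9.65 to 14.6) and 10.4 CPM (8.48 to 12.6) in cluster 3 (Slit3, Prss35). Tgm2 had 0.247 and 0.201 CPM in cluster 0, 0.787 and 0.225 CPM in cluster 9 and 5.27 CPM (3.78 to 7.15) and 2.45 CPM (1.57 to 3.64) in cluster 3. It had 3 and 3 UMIs in cluster 0 and 5 and 2 in cluster 9, too few to order clusters 0 and 9. The intervals of clusters 0 and 3 did not overlap for either gene in either library. In LPC-like cells with a Tgm5 UMI, 5 of 502 cells of PADI4 WT (0.996%) had a Tgm2 UMI against 3.92% (2.70 to 5.49) of those without. The shares for the library labelled PADI4 cKO were 0.425% against 2.51% (1.58 to 3.78).

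**Figure D3:**
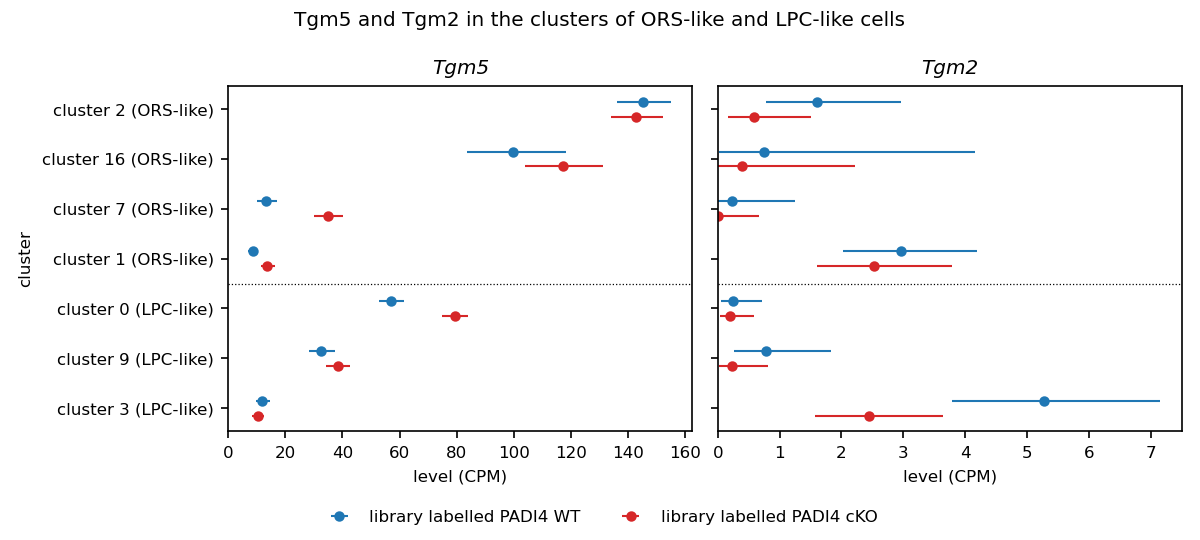
Level in CPM (horizontal axes) of Tgm5 and Tgm2 in the clusters that make up ORS-like and LPC-like cells (vertical axis), with PADI4 WT in blue, PADI4 cKO in red and bars for the 95% exact Poisson interval. Tgm5 runs from 145 and 143 CPM in cluster 2 to 8.53 and 13.7 CPM in cluster 1, and Tgm2 reaches 5.27 and 2.45 CPM in cluster 3, where Tgm5 is at 11.95 and 10.4 CPM.

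Tgm2, which also serves as a matrix-associated and GTP-binding protein, was highest among epithelial groups in cluster 12, led by the contractile genes Tagln, Myl9 and Acta2. It had 88 UMIs in 466 cells of PADI4 WT, 11.9 CPM (9.57 to 14.7), and 50 UMIs in 347 cells of the library labelled PADI4 cKO, at 8.12 CPM (6.03 to 10.7). The interval lay above those of all other groups in PADI4 WT and of 10 groups in the library labelled PADI4 cKO, the exception being the 54 SG-like cells with 2 UMIs. ORS-like cells had 1.93 and 1.17 CPM and LPC-like cells 1.86 and 0.863 CPM, and CL-like cells had 0 UMIs in both libraries.

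Fibroblast-like cells also held Tgm2, with 11 UMIs in 49 cells and 13 UMIs in 27 cells, 13.9 and 27.2 CPM, so for Tgm2 they do not stand for cells without the gene. Over all epithelial cells the 6 fibroblast markers summed to 8.05 and 7.71 CPM, with 0 of them and 1 of them at 0. Tgm2 UMIs lay in 12.4% of cluster 12 cells of PADI4 WT and 10.4% of the other library, and at most 4 in a cell. In the ORS-like class cluster 1 held 72.7% and 82.1% of Tgm2 UMIs, while cluster 2, where Tgm5 was highest, held 22.7% and 14.3%.

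The comparison of the libraries asked whether the genes differed with the Padi4 genotype label. Over all epithelial cells, Tgm5 had 2877 UMIs in PADI4 WT and 3795 in the library labelled PADI4 cKO, 22.6 and 29.3 CPM, a log2 ratio (PADI4 cKO over PADI4 WT, 0.5 UMI added to each sum) of 0.37 with an exact conditional binomial interval of 0.30 to 0.45. Tgm2 had 202 and 131 UMIs, 1.59 and 1.01 CPM, a log2 ratio of -0.65 (-0.98 to -0.32). Tgm1 had 147 and 179 UMIs, a log2 ratio of 0.26 (-0.06 to 0.58), and Tgm3 144 and 139 UMIs, a log2 ratio of -0.08 (-0.42 to 0.27). Tgm2 was thus the 1 gene past a log2 ratio of 0.5 in either direction, which 5.17% of the 14901 genes with 100 or more UMIs were, and the median gene was at -0.01.

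The libraries also differed in how many cells fell in each group and in the share of cells with Xist UMIs. The ratios were therefore also computed with equal group weights and in subsets of cells. With each group given equal weight the log2 ratio of Tgm2 was -0.15 and that of Tgm5 0.29, and no gene passed 0.5. For Tgm2 that value gives full weight to SG-like cells, cluster 13 and cluster 14, which had 0 UMIs in PADI4 WT and 2, 1 and 2 in the other library, while LPC-like cells, ORS-like cells and cluster 12, which held most of its UMIs, had negative ratios. Between cells with Xist and no Y-linked UMIs of both libraries the ratios were -1.12 for Tgm2, 0.45 for Tgm5 and -0.22 for Tgm3, and that of Tgm1 changed sign, to -0.11. Within PADI4 WT, Xist cells had higher Tgm1 and Tgm2 than cells with Y-linked UMIs, by log2 ratios of 0.61 (0.05 to 1.15) and 0.60 (0.15 to 1.04), and for Tgm5 the ratio was -0.10 (-0.23 to 0.03). The part of these differences in the library ratios was not tested.

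Within groups, 10 of the 48 pairs of gene and group had the 100 UMIs asked for, and 2 of them passed 0.5. Tgm5 in cluster 6 had 67 and 130 UMIs, a log2 ratio of 0.87 (0.43 to 1.32) where 4.77% of genes passed 0.5, and 1.37 between Xist cells. Tgm2 in cluster 12 had a log2 ratio of -0.55 (-1.09 to -0.04) where 3.27% of genes did, and -0.49 between Xist cells. Tgm5 was compared in 7 groups, with a positive ratio in 6 and an interval above 0 in 4. The shares of all genes with a positive ratio or an interval above 0 were not computed. All groups come from the same libraries, so these counts are not read as repeated findings.

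The Tgm5 ratio was 0.34 (0.23 to 0.45) in ORS-like cells, where 5.12% of genes passed 0.5, and 0.35 (0.24 to 0.47) in LPC-like cells, where 4.14% did and where the marker gate applied cell by cell gave 0.11. It was 0.50 (0.12 to 0.86) in IFE-like cells, just under the threshold, where 15.2% of genes passed, and 0.24 (-0.12 to 0.61) in GL-like cells, where 3.0% passed. In cluster 14 it was 0.45 (-0.14 to 1.03), with 6.75% of genes past 0.5, and it turned to -0.91 without called doublets and was 1.46 between Xist cells. Within PADI4 WT, Tgm5 of ORS-like Xist cells was lower than that of cells with Y-linked UMIs, 43.6 against 57.8 CPM, while in LPC-like cells it was 38.9 against 38.6 CPM. In ORS-like cells the library ratio was 0.61 between Xist cells and 0.19 when only PADI4 WT cells with Y-linked UMIs were used, so it kept its sign.

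Among the 7 groups with 100 or more UMIs, IRS-like cells were the one with a negative Tgm5 ratio, -0.31 (-0.67 to 0.04) from 162 and 113 UMIs, where 3.22% of genes passed 0.5. With fewer UMIs, CL-like cells had 12 and 5 and a ratio of -1.01 (-2.94 to 0.52), and SG-like cells 17 and 7 and a ratio of -1.27 (-2.84 to 0.02). The sign in IRS-like cells was not stable. The ratio was -0.71 between Xist cells, 0.19 when only Y-linked cells of PADI4 WT were used, 0.36 with the marker gate and -0.08 without called doublets. Within PADI4 WT, IRS-like Xist cells had 19.7 CPM of Tgm5 and cells with Y-linked UMIs 10.6 CPM. Tgm1 in IRS-like cells had a log2 ratio of 0.33 (-0.17 to 0.84) and Tgm3 one of 0.21 (-0.39 to 0.80), which was -0.31 between Xist cells.

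**Figure D4:**
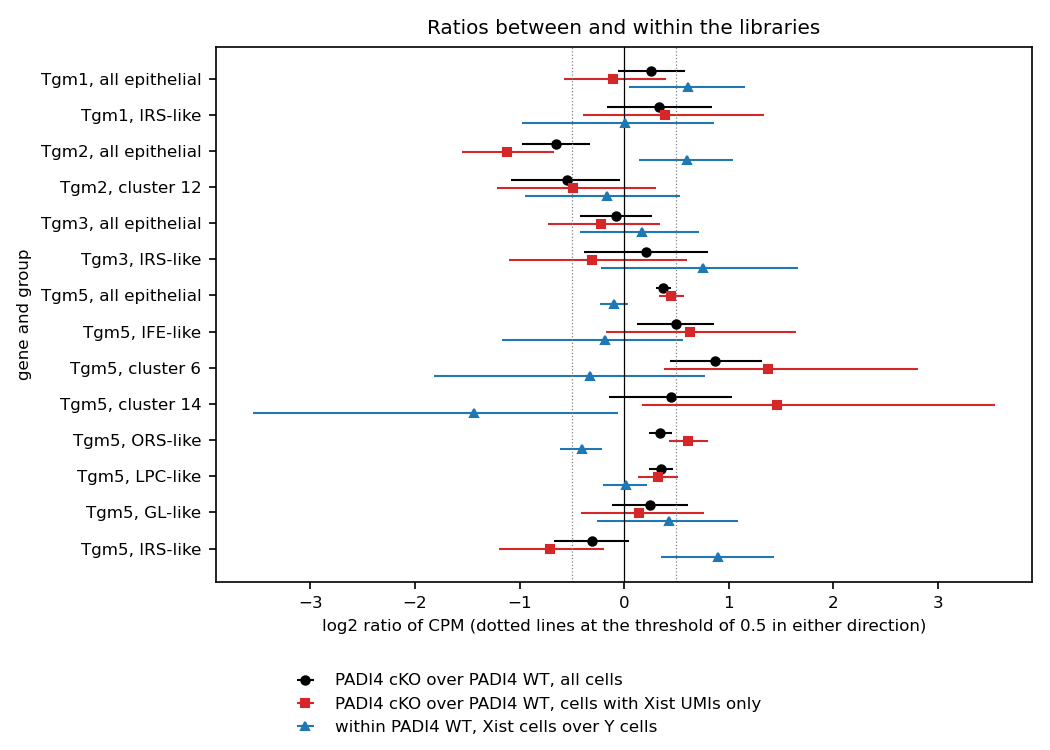
Log2 ratio of CPM (horizontal axis, dotted lines at 0.5 in either direction) for each gene over all epithelial cells and in each group with 100 or more UMIs (vertical axis). Black circles give the ratio of the library labelled PADI4 cKO to PADI4 WT, red squares the same between cells with Xist and no Y-linked UMIs, blue triangles Xist cells over cells with Y-linked UMIs within PADI4 WT, and bars the 95% exact conditional binomial interval. The Tgm5 ratio is positive in ORS-like cells (0.34) and LPC-like cells (0.35), and within PADI4 WT it is -0.41 and 0.01 there.

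Among the clusters, the Tgm5 ratio was not uniform within a class. In ORS-like cells it was 1.39 (0.97 to 1.84) in cluster 7 and 0.68 (0.29 to 1.09) in cluster 1, both low in Tgm5, and -0.02 (-0.16 to 0.11) in cluster 2, where Tgm5 was highest. In LPC-like cells it was 0.47 (0.34 to 0.61) in cluster 0 and -0.20 (-0.62 to 0.22) in cluster 3. In GL-like cells it was 0.50 (0.08 to 0.94) in cluster 5 and -0.97 (-1.92 to -0.10) in cluster 8. The latter, where medulla markers were raised, had 30 and 18 UMIs. The pairs with 50 to 99 UMIs were Tgm2 in LPC-like cells, with 49 and 29 UMIs and a log2 ratio of -1.10 (-1.83 to -0.42), Tgm2 in ORS-like cells, with 44 and 28 UMIs and -0.72 (-1.46 to -0.01), and Tgm1 in CL-like cells, with 32 and 40 UMIs and 0.50 (-0.21 to 1.22). Beside these counts stand the shares of genes past 0.5 given above for LPC-like and ORS-like cells, which were computed for genes with 100 or more UMIs.

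The genes whose levels followed each transglutaminase most closely across the 12 groups were taken by Pearson correlation of log2(CPM + 1) in each library, over 12299 genes. The groups of a library share its preparation, so these values are descriptions. For Tgm1 they were Cdc42, Aktip, Perp, Wnt11 and Fkbp1a, with 0.95 in both libraries for Cdc42, and Wnt11, a Wnt ligand, had 323 and 336 CPM in CL-like cells and 17.1 and 25.6 CPM in IRS-like cells. For Tgm5 they were Hmga2, a chromatin architectural protein, with 0.88 and 0.90, and Halr1, Tshz2, Enox1 and Amigo1. For Tgm3 they were Tuft1, with 0.82 in both, Nectin1, Wdr47, Rgl2 and AI661453. For Tgm2 they were Cdh9, with 0.87 and 0.91, Bicc1, Bace1, Slpi and Thy1. Across 19 clusters in place of the groups, 9 of these 20 genes were again among the closest 5, and 0 of the 5 of Tgm2.

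Of 22 substrates and envelope proteins, 9 had 200 or more UMIs in each library and all 9 had the same highest group in both. Dsp and Ppl, desmosome and envelope plakins, and Anxa1 were highest in CL-like cells, where Tgm1 was, with 1527 and 1226 CPM for Dsp. Tchh, trichohyalin of the IRS, and the plakin Evpl were highest in IRS-like cells, S100a10 and S100a11 in IFE-like cells, the cystatin Cst6 in SG-like cells and Lor, loricrin of the cornified envelope, in cluster 13. None of these 9 was highest in ORS-like cells, where Tgm5 was. Flg, Flg2, Hrnr, Rptn, Tchhl1, Sprr1b, Sprr2d, Sprr2h, Sprr3 and Sprr4 had between 0 and 2 UMIs in either library.

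The transcription factors of keratinocyte differentiation all had enough UMIs, 8 of 8, and 7 had the same highest group in both libraries. Grhl1, Grhl3, Klf4 and Zfp750 were highest in IRS-like cells, Ovol1 in Cx-like cells, Trp63 in cluster 13 and Prdm1 in ORS-like cells, the last with 105 and 132 CPM. Of the proteases that can activate transglutaminase proenzymes, Ctsd was highest in CL-like cells of both libraries at 277 and 282 CPM, and Ctsl, Lgmn and Capn1 changed their highest group. Of the envelope lipid genes, Cers3, a ceramide synthase, was highest in CL-like cells, the lipid transporter Abca12 in SG-like cells and Ugcg in cluster 13.

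Between libraries, 12 substrates were compared over all epithelial cells and 0 passed 0.5 upwards and 3 downwards, where 5.17% of all genes passed it in either direction, with a median log2 ratio of -0.32 against -0.01 for all genes. These were Tchh at -1.47 (-1.57 to -1.36), Lor at -0.66 (-0.87 to -0.45) and the cystatin Csta1 at -2.32 (-2.75 to -1.93). Within groups the substrate median was -0.05 in ORS-like, -0.13 in LPC-like, -0.16 in IRS-like and -0.34 in IFE-like cells. It was lowest in cluster 14, at -0.45, and highest in SG-like cells, at 0.22. IFE-like cells were 7.08% of epithelial cells in PADI4 WT and 1.94% in the other library. The part of group sizes in the median over all epithelial cells was not tested. In IRS-like cells Tchh had 208 CPM in PADI4 WT and 56.2 CPM in the library labelled PADI4 cKO, a log2 ratio of -1.89 (-2.03 to -1.75), and was the 1 of 8 substrates past 0.5. In LPC-like cells, with 80 and 148 UMIs, it went the other way, at 0.53 (0.13 to 0.94), and was the 1 of 9 substrates past 0.5. None of 8 transcription factors, 4 proteases or 4 lipid genes passed 0.5 over all epithelial cells. Within groups Klf4 passed it upwards in ORS-like cells, at 0.73 (0.65 to 0.80), GL-like cells, at 0.66 (0.57 to 0.75), LPC-like cells, at 0.56 (0.45 to 0.66), cluster 6, at 0.70 (0.54 to 0.86), and cluster 12, at 0.54 (0.17 to 0.91), while in CL-like cells its ratio was -0.91 (-1.32 to -0.53) from 171 and 80 UMIs. Prdm1 passed it downwards in GL-like cells, at -0.75 (-1.12 to -0.40), and its ratio in cluster 13 was -1.14 (-1.60 to -0.71). Prdm1 and Zfp750 also passed it upwards in cluster 6, and Zfp750 downwards in cluster 14. Lor passed it downwards in GL-like cells and cluster 13, Ppl in CL-like cells and cluster 12, and Ctsl and Lgmn in CL-like cells. S100a10 passed it upwards in SG-like cells. Evpl and Cst6 in cluster 6, and Ppl and Cst6 in cluster 14, passed it in opposite directions. The share of all genes past 0.5 was not computed for CL-like cells, SG-like cells or cluster 13. In IFE-like cells Prdm1, at 1.84 (1.41 to 2.27), Zfp750 and Grhl1 passed it upwards, beside Cst6 and Sprr1a, and Tchh, Anxa1 and Csta1 passed it downwards. The lipid gene Abca12 passed it upwards at 1.37 (1.00 to 1.72), and Cers3, at -0.57, and the protease Lgmn, at -0.74, downwards. In these cells 15.2% of all genes passed 0.5, and Xist UMIs without Y-linked UMIs were found in 6.18% of these PADI4 WT cells and in 97.9% of those from the library labelled PADI4 cKO. The part of that difference was not tested.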

How the data were processed

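The authors processed reads with Cell Ranger on mm10, per the labels' processing notes, and deposited unfiltered UMI counts per gene and barcode, with 143938990 UMIs in PADI4 WT and 143945294 in PADI4 cKO. Their background removal (CellBender) and cell cycle correction with Harmony were not repeated. Barcodes were kept as cells where they held 2000 to 60000 UMIs, detected 1000 to 8000 genes, had no more than 20% mitochondrial and 1% hemoglobin UMIs and a ribosomal share between the 5th and 99th percentile, and were clustered with Scanpy (version 1.11.5; 1000 variable genes without the transglutaminase and pathway genes, cell cycle regressed, 50 components, Leiden resolution 1.0). Clusters were named from at least 3 markers raised 1.5-fold with at least 5 CPM. After the clusters were seen, ties went to the list with more leading genes, a cluster with 90% or more of its cells from 1 library was left unnamed (45 cells), and the doublet score threshold of PADI4 cKO was used for both libraries (3.58% and 4.06% of cells called, and kept). Ratio intervals were checked on simulated Poisson counts, the model they assume, so the check cannot show how they hold for counts that vary more between cells. The genes named were the 4 members, the pathway lists, the 5 genes most like each member, markers and Padi4. The members and lists were chosen with earlier results of these data known. Gene positions came from GENCODE vM21 (GRCm38), which matched 32235 of 32285 genes. PCR and sampling of cells add error that the intervals do not cover.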

Additional observations from a re-analysis of the deposited data

Results flagged for a closer look

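The Tgm5 ratio between libraries had opposite signs in some pairs of groups or clusters whose intervals did not overlap. In each pair the interval of the negative ratio held 0, so opposite directions were not resolved. The sign in IRS-like cells was not stable, as given above, and none of these differences was tested. The log2 ratio in IRS-like cells minus that in another group was -0.81 for IFE-like cells, -0.66 for LPC-like cells, -0.65 for ORS-like cells and -1.17 for cluster 6. Within ORS-like cells the ratio in cluster 2 minus that in cluster 1 was -0.71, and minus that in cluster 7 it was -1.41. Within LPC-like cells the ratio in cluster 3 minus that in cluster 0 was -0.67.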

How the results depend on the processing

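No paired analysis was possible because each genotype has 1 library. The Tgm5 level in ORS-like cells of PADI4 WT (52.1 CPM) was 48.7 CPM with a minimum of 1000 UMIs per cell, 41.1 with a minimum above the 2000 used, 47.6 without doublets, 46.8 and 44.7 at resolutions 0.5 and 2.0, 48.0 without cell cycle correction, 37.1 with the marker gate and 70.8 with cells thinned to 2000 UMIs. Thinning gave 26.1 CPM for Tgm1 in CL-like and 1.84 CPM for Tgm3 in Cx-like cells. Over all epithelial cells, the log2 ratio between Xist cells was -0.11 for Tgm1, -1.12 for Tgm2 and 0.45 for Tgm5, thinning gave -1.29 for Tgm2 and 0.24 for Tgm5, and equal group weights gave -0.15 and 0.29, with 0 genes past 0.5 in place of 1. Within groups, the Tgm5 ratio between Xist cells was -0.71 in IRS-like, 0.61 in ORS-like, 1.46 in cluster 14 and 1.37 in cluster 6 cells. With the marker gate it was 0.36 in IRS-like, 0.11 in LPC-like and 0.48 in ORS-like cells, with PADI4 WT cells with Y-linked UMIs (chosen after seeing the data) 0.19 in both IRS-like and ORS-like cells, and without doublets (likewise) -0.91 in cluster 14. The pairs past 0.5 were 2, and 4 with 50 UMIs or 5 between Xist cells. The share of all genes past 0.5 was not computed at 50 UMIs or between Xist cells. The counts of 4 and 5 are therefore not read as more change in these genes. Shares of cells with a UMI after thinning were 5.22% and 2.73% for Tgm1 in CL-like (from 23.5% and 29.1%), 0.325% and 0.160% for Tgm2 in ORS-like (2.16% and 1.44%), 0.368% and 0.472% for Tgm3 in Cx-like (8.82% and 4.25%) and 10.3% in both libraries for Tgm5 in ORS-like cells (24.8% and 32.5%). The closest genes named again across clusters (chosen after seeing the data) were 9 of 20. The other alternatives moved 21 levels and 68 ratios by less than the interval of the value, and groups too small under an alternative, such as CL-like and Cx-like cells under the gate, gave no value. The causes were not tested. Tgm1, Tgm2 and Tgm3 had under 100 UMIs in most groups, which limits the precision of their ratios.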

Other observations

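Of the other transglutaminase family genes, Tgm6 had its highest level in cluster 13, led by Gpnmb, Ednra and the medulla marker Krtap8-1. There it had 50 UMIs in 200 cells of PADI4 WT, 18.0 CPM (13.4 to 23.8). In the library labelled PADI4 cKO it had 24 UMIs in 128 cells, or 12.2 CPM (7.81 to 18.1). Over all epithelial cells it had 111 and 89 UMIs, of which 24 and 25 lay in Cx-like cells and 20 and 26 in GL-like cells. Cx-like cells followed with 5.56 and 6.49 CPM and IRS-like cells with 1.39 and 1.29 CPM, and IFE-like cells had 0 UMIs in both. Tgm7, next to Tgm5 on chromosome 2, had 32 and 27 UMIs over all epithelial cells, Tgm4 had 30 and 46, Epb42, the enzymatically inactive erythrocyte protein 4.2, had 26 and 39, and the coagulation factor XIII genes F13a1 and F13b had between 0 and 5. In droplets with under 100 UMIs, taken as empty, Tgm5 had 96 and 153 UMIs, 15.8 and 19.8 CPM.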
